A study of Mus musculus with 13 samples.

Results

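The genes of insulin-like growth factor 1 (IGF1), its receptors and the IGF-binding proteins were followed in mouse brain after loss of Pdcd10 in brain endothelium and after low oxygen. The members were the rows of the gene count table with the symbols Igf1, Igf1r, Igf2r, Igfbp2, Igfbp3, Igfbp4, Igfbp5, Igfbp6 and Igfbp7, which are 9 of 55416 genes. All 9 passed the filter on low counts, with between 367 and 15081 counts per library.

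IGF1 is a small secreted growth factor that acts through a receptor tyrosine kinase, the product of Igf1r, to promote growth and survival of cells. In blood and tissue it is held by a family of secreted binding proteins, which carry the factor, store it in the matrix, withhold it from the receptor or release it when a protease cleaves them. In the brain IGF1 supports neurons, glia and vessels, and the binding proteins are made by different cells, among them cells of the vessel wall, the meninges and the choroid plexus.

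The 13 libraries, made from messenger RNA of brain tissue, form 4 groups. The knockouts (KO) carried Slco1c1-iCreERT2 and Pdcd10fl/fl, in which tamoxifen activates a Cre recombinase driven by the promoter of Slco1c1, a transporter gene of brain endothelium, and they received 50 µg of 4-hydroxytamoxifen into the stomach on postnatal day 1. The controls (flox) were Pdcd10fl/fl littermates, so all groups carried the floxed allele. The series' text does not say whether the flox mice were injected, and effects of the lost gene, of the Cre transgene and possibly of the injection cannot be told apart. That text also mentions Cre-carrying littermates without injection as controls, and no sample is labelled as one. Both genotypes were kept at 21% oxygen (normoxia) or at 12% oxygen for 7 days (hypoxia), with 3 libraries of each genotype in normoxia, 3 of flox in hypoxia and 4 of KO in hypoxia. Age at harvest is not in the labels. Mice that lose this gene (Ccm3) from endothelium are used to model cerebral cavernous malformations, which are clusters of widened, leaky brain vessels. The comparisons asked what the knockout changed at each oxygen level, what hypoxia changed in each genotype, and whether the knockout effect differed with oxygen.

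Libraries held 42090437 to 71216636 counts, at which 3 counts come to 0.0421 to 0.0713 CPM (counts scaled to library size), a floor that covers counting error only. Levels are given as CPM scaled by TMM, a correction for library composition, and as mean ± SD over libraries. Labels name no animal, so a p-value here sets differences against library-to-library spread, which may be technical. Pdcd10 lay between 14.7 and 18.1 CPM in all libraries, and in whole tissue it does not check a deletion limited to endothelium. Neuron markers summed to 5966 to 6786 CPM and oligodendrocyte markers to 3834 to 6121 CPM, so brain tissue was present in every library. Every library is labelled male, but 4 held Xist at 564 to 793 CPM: replicate 3 of flox and of KO in normoxia, and replicates 3 and 4 of KO in hypoxia. KO replicate 1 in hypoxia stood apart, with 17392 CPM of hemoglobin and other erythroid transcripts against 3408 to 4164 CPM in the other 3 KO libraries in hypoxia. KO replicate 2 in normoxia nearly lacked choroid plexus markers (9.95 CPM, against 313 to 527 CPM in the other 12 libraries).

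The clearest change was in Igfbp7, which was higher in KO at both oxygen levels, by 2.17-fold in normoxia and 2.39-fold in hypoxia. Igfbp2 and Igfbp4 also rose in KO in hypoxia, by 1.46-fold and 1.17-fold. With the main settings, Igf1 and both receptors passed the threshold in no comparison, nor did Igfbp3, Igfbp5 and Igfbp6. No member was lower past the threshold in any comparison. Between genotypes, 1 of 9 members was higher in normoxia, where 1.96% of the 22507 genes tested were, and 3 of 9 were higher in hypoxia, where 6.78% of genes were (edgeR's quasi-likelihood test, Benjamini-Hochberg adjusted p below 0.05). The median log2 fold change of the 9 members was 0.09 in normoxia and 0.23 in hypoxia, against -0.004 and -0.01 over all genes tested.

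**Figure D1:**
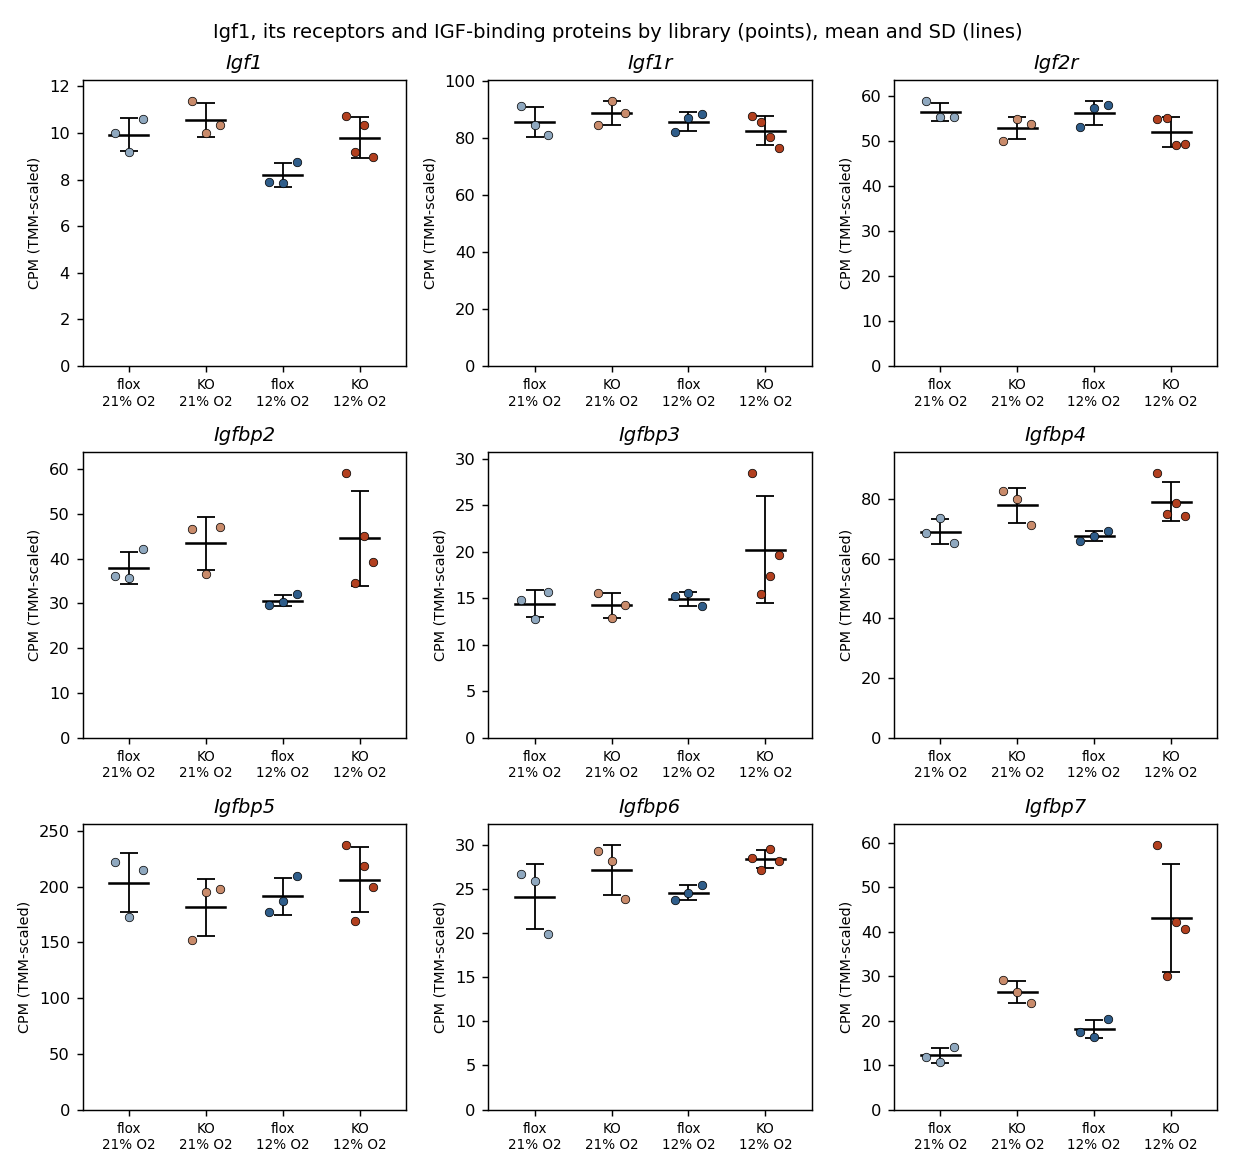
CPM (TMM-scaled, from 0 on each axis) of the 9 genes, with 1 point per library in the 4 groups (21% O2 is normoxia, 12% O2 is hypoxia) and lines for the mean and SD. Igfbp7 runs from 10.8 to 14.1 CPM in flox mice in normoxia and from 30.1 to 59.5 CPM in KO mice in hypoxia, while all Igf1r points lie between 76.6 and 92.9 CPM.

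Igf1, the ligand, was at 10.02, 9.17 and 10.6 CPM in the 3 flox libraries in normoxia and at 11.4, 9.98 and 10.3 CPM in KO mice, and these groups overlapped. In hypoxia it was at 7.91, 7.87 and 8.77 CPM in flox mice and at 10.7, 9.17, 10.3 and 8.96 CPM in KO mice. Each KO library in hypoxia was thus above each flox library, and each flox library in hypoxia was below each flox library in normoxia. Neither difference passed the threshold. For KO against flox in hypoxia the log2 fold change was 0.26 ± 0.09 (SE) (edgeR adjusted p = 0.0784), and for hypoxia against normoxia in flox mice it was -0.28 ± 0.09 (edgeR adjusted p = 0.548). KO against flox in normoxia came to 0.09 ± 0.09 (edgeR adjusted p = 0.756), and hypoxia against normoxia in KO to -0.10 ± 0.09 (edgeR adjusted p = 0.644). Igf1os, an antisense RNA that overlaps Igf1, was at 0.018 CPM at most.

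Microglia are 1 source of Igf1 in brain, and their markers moved with genotype. The 11 microglia markers summed to 337 to 353 CPM in flox mice and 395 to 412 CPM in KO mice in normoxia, and to 340.4 to 354 CPM in flox mice and 415 to 540.1 CPM in KO mice in hypoxia. In hypoxia 9 of the 11 were higher in KO past the threshold, and in normoxia none was. Igf1 came to 2.72 to 2.999 CPM per 100 CPM of these markers in flox in normoxia, 2.42 to 2.80 in KO in normoxia, 2.22 to 2.56 in flox in hypoxia and 1.92 to 2.22 in KO in hypoxia. Beside the microglia markers, then, Igf1 was not higher in KO at either oxygen level. In bulk tissue, fewer cells of a type and less RNA per cell cannot be told apart, and the part of microglia in the Igf1 level was not tested.

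Igf1r, the signalling receptor, varied little. Its level was 85.6 ± 5.28 CPM in flox mice and 88.8 ± 4.20 CPM in KO mice in normoxia (n = 3 per group), then 85.7 ± 3.34 CPM in flox mice (n = 3) and 82.6 ± 4.999 CPM in KO mice (n = 4) in hypoxia. All 13 libraries lay between 76.6 and 92.9 CPM, and the groups overlapped in each of the 4 comparisons. Its log2 fold changes ran from -0.10 ± 0.05 to 0.05 ± 0.06.

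Igf2r encodes the receptor that clears IGF2 and also sorts lysosomal enzymes tagged with mannose 6-phosphate. It was at 58.9, 55.3 and 55.4 CPM in flox mice and at 50.1, 54.9 and 53.8 CPM in KO mice in normoxia, so that each KO library was below each flox library. There it had a log2 fold change of -0.09 ± 0.06, and it did not pass (edgeR adjusted p = 0.53). In hypoxia the libraries ran from 53.2 to 58.1 CPM in flox mice and from 49.2 to 55.1 CPM in KO mice and overlapped, at a log2 fold change of -0.11 ± 0.05 (edgeR adjusted p = 0.255). Airn, a non-coding RNA that overlaps Igf2r on the opposite strand, stayed at 0.557 to 1.58 CPM. How strand was treated in the counting is not given in the sources used here.

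Counts depend on transcript length, so the order of the genes was taken from the deposited RPKM values, which are counts scaled to library size and gene length. In flox in normoxia Igfbp5 was the highest at 33.6 ± 4.20 RPKM, followed by Igfbp6 (21.6 ± 3.36), Igfbp2 (20.4 ± 1.86), Igfbp4 (15.5 ± 1.06) and Igfbp7 (10.04 ± 1.33). Below these came Igf2r (6.04 ± 0.21), Igf1r (5.06 ± 0.31), Igfbp3 (4.58 ± 0.44) and Igf1 (0.996 ± 0.066; n = 3 for each gene). The neighbours Igfbp6 and Igfbp2 differed by less than either SD, and Igf1r and Igfbp3 by less than the sum of theirs. In KO in hypoxia the highest were Igfbp7 (36.1 ± 9.85 RPKM) and Igfbp5 (34.8 ± 4.69 RPKM; n = 4 each), which do not differ beyond their spread.

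Igfbp7 encodes a secreted protein of the vessel wall that binds IGF1 weakly compared with the rest of the family. It was at 11.8, 10.8 and 14.1 CPM in flox mice and at 29.0, 26.4 and 24.1 CPM in KO mice in normoxia. In hypoxia it was at 17.5, 16.4 and 20.5 CPM in flox mice and at 59.5, 30.1, 42.3 and 40.7 CPM in KO mice. The groups overlapped in none of the 4 comparisons, where 19.2%, 20.9%, 12.5% and 12.6% of all genes tested did not overlap either (KO against flox in normoxia, then in hypoxia; hypoxia against normoxia in flox mice, then in KO mice). The log2 fold change for KO against flox was 1.12 ± 0.18 in normoxia (edgeR adjusted p = 0.00328) and 1.25 ± 0.17 in hypoxia (edgeR adjusted p = 0.000229). The knockout effects at the 2 oxygen levels differed by 0.14 ± 0.25, with a 95% interval from -0.38 to 0.66 (edgeR adjusted p = 0.932), so no difference between them was detected and one of that range is not excluded. Without KO replicate 1 in hypoxia, the library with the most erythroid transcripts, KO was at 37.7 ± 6.61 CPM (n = 3) and the log2 fold change was 1.06.

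Hypoxia alone went the same way in each genotype without passing the threshold in either. For Igfbp7 it was 0.56 ± 0.18 in flox (edgeR adjusted p = 0.53) and 0.70 ± 0.17 in KO (edgeR adjusted p = 0.0596). Averaged over genotypes it was 0.63 ± 0.12 and passed (edgeR adjusted p = 0.0251). The averaged call was lost without flox replicate 1 or 2 or KO replicate 2 or 3 in normoxia and without flox replicate 1 or 3 in hypoxia (edgeR adjusted p from 0.0543 to 0.0733, log2 fold changes from 0.59 to 0.65). In KO the hypoxia effect passed without KO replicate 2 in hypoxia (0.85, edgeR adjusted p = 0.0104) and without flox replicate 3 in normoxia (0.70, edgeR adjusted p = 0.0496). Igfbp7 was then 1 of 9 members higher with hypoxia, where 0.755% of genes tested were higher. The same average of the knockout effects was 1.18 ± 0.12 (edgeR adjusted p = 1.18e-05), in which 3 of 9 members and 7.78% of genes tested were higher. Of these 3, Igfbp4 and Igfbp7 passed in each of 23 alternative analyses and Igfbp2 in 15 of 23.

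The stretches before the starts of the 3 genes that rose in KO were read from the RefSeq promoter table (build GRCm38.p6) and are shown because hypoxia was 1 of the treatments and KLF transcription factors are well known in Pdcd10 loss. Capitals mark ACGTG or GCGTG, the core of the hypoxia-response element, and CACCC, a core bound by KLF factors, each on either strand, so some capitals spell a core's reverse complement. The Igfbp7 stretch is chr5:77408046-77408295 on the minus strand, with 2 hypoxia-response cores and 0 CACCC. Igfbp2 has stretches before 2 starts in that table. The one printed is chr1:72824230-72824479 on the plus strand, with 4 hypoxia-response cores, of which an ACGTG on each strand overlap in CACGTG, and 1 CACCC. The other, chr1:72825137-72825386 on the plus strand, has 0 hypoxia-response cores and 2 CACCC. That of Igfbp4 is chr11:99040994-99041243 on the plus strand, with 0 hypoxia-response cores and 1 CACCC. Of 32851 promoters of the same length in that table, 38.6% held a hypoxia-response core and 52.0% a CACCC. The other members were read the same way and are not printed. Hypoxia-response cores and CACCC numbered 6 and 2 for Igf2r, 3 and 0 for Igf1r, and 2 and 3 for Igfbp3. They numbered 1 and 0 for Igf1, 0 and 3 for Igfbp5, and 0 and 2 for Igfbp6. A match is a description of the letters and shows no binding.
Igfbp7, 250 bases before the start: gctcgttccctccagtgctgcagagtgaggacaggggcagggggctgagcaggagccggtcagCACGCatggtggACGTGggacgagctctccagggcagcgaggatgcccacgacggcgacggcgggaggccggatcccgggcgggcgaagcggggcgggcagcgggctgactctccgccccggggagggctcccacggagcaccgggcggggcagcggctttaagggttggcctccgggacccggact
Igfbp2, 250 bases before the start: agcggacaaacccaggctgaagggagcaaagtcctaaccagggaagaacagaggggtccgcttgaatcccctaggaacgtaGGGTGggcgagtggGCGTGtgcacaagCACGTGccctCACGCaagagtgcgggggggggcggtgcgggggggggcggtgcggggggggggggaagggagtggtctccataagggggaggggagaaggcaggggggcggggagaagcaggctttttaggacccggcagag
Igfbp4, 250 bases before the start: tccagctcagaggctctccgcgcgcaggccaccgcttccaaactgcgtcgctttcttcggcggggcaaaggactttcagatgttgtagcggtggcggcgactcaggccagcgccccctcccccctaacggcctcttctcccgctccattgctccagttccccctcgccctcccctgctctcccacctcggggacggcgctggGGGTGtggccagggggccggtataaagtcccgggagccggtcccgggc

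Igfbp7 moved with the markers of endothelium. The 15 endothelial markers summed to 229.6 to 256 CPM in flox mice and 457 to 525 CPM in KO mice in normoxia, and to 321 to 350.2 CPM in flox mice and 599.7 to 968 CPM in KO mice in hypoxia. Of these markers 14 were higher in KO past the threshold in normoxia and 15 in hypoxia, with median log2 fold changes of 0.97 and 1.03. With hypoxia 1 was higher in flox and 7 were higher in KO. Per 100 CPM of endothelial markers, Igfbp7 was at 4.20 to 5.60 CPM in flox mice in normoxia, 5.03 to 5.82 in KO in normoxia, 5.01 to 5.84 in flox in hypoxia and 4.93 to 6.79 in KO in hypoxia. These 4 ranges overlapped, unlike those of the Igfbp7 level itself. Pericyte markers also rose in KO (7 of 11 in normoxia, 9 of 11 in hypoxia), and Igfbp7 per 100 CPM of them was 4.86 to 5.48 in flox and 6.31 to 7.14 in KO in normoxia, which did not overlap, and 5.63 to 6.97 in flox and 6.80 to 10.2 in KO in hypoxia, which did. Whether the rise came from more endothelium, from more Igfbp7 per endothelial cell or from other cells such as pericytes cannot be told apart in these libraries.

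**Figure D2:**
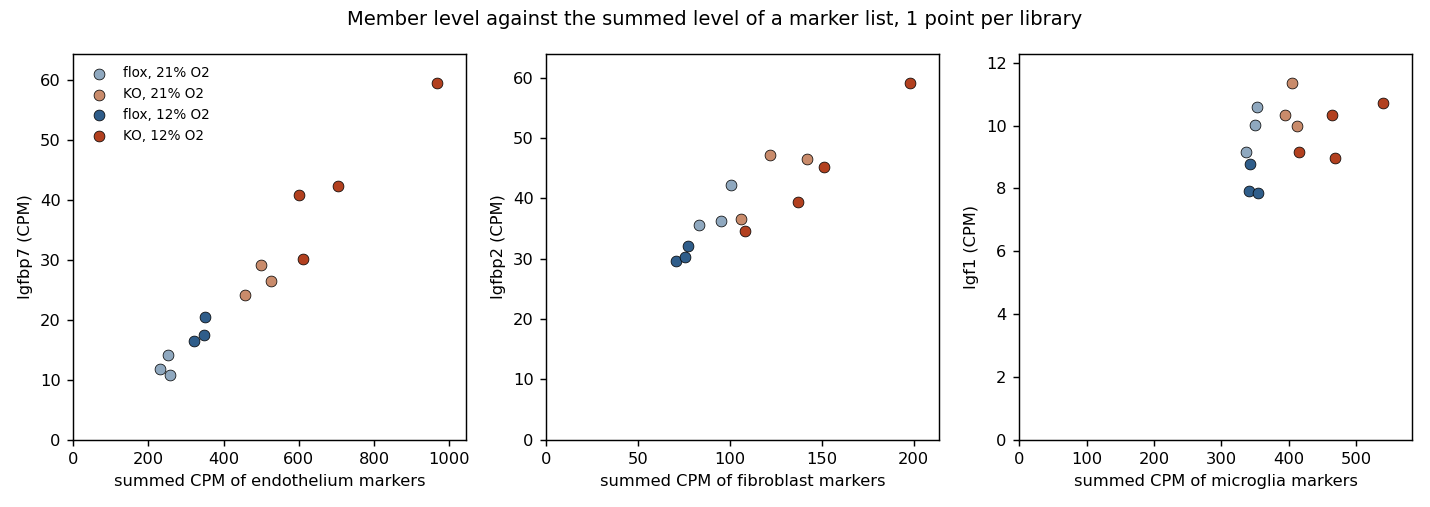
CPM of 1 gene (vertical axis) against the summed CPM of a marker list in the same library (horizontal axis), 1 point per library, coloured by group: Igfbp7 with endothelial, Igfbp2 with fibroblast and Igf1 with microglia markers. KO replicate 1 in hypoxia is the rightmost point of each panel, at 968 CPM of endothelial markers.

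The genes with the pattern most like Igfbp7 over the 13 libraries were Klf6 (Pearson r of log2 CPM 0.986), Cdh5 (0.985) and Pecam1 (0.985), among 11922 candidates. Klf6 encodes a zinc finger transcription factor. Cdh5 and Pecam1 encode adhesion proteins of endothelial junctions and are 2 of the 15 endothelial markers. With group means removed, r was 0.938, 0.901 and 0.860. KO replicate 1 in hypoxia had the highest Igfbp7 and endothelial marker levels of its group. No r without that library was computed, here or for the other members. Igfbp7 overlaps Polr2b at its 3′ end and an antisense RNA, Gm34648, in the reference annotation (build GRCm38), and Gm34648 was at 0.0299 CPM at most.

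Igfbp2 encodes a binding protein that in brain is abundant in meninges and choroid plexus. It was at 36.2, 35.6 and 42.2 CPM in flox mice and at 46.6, 36.6 and 47.2 CPM in KO mice in normoxia, where the groups overlapped through the KO library of 36.6 CPM. That library is the one nearly without choroid plexus markers. In normoxia the log2 fold change was 0.19 ± 0.15 (edgeR adjusted p = 0.642), and without that library it was 0.30 (edgeR adjusted p = 0.493). In hypoxia Igfbp2 was at 29.6, 30.2 and 32.1 CPM in flox mice and at 59.2, 34.5, 45.2 and 39.4 CPM in KO mice, and each KO library was above each flox library. The log2 fold change of 0.54 ± 0.14 passed (edgeR adjusted p = 0.024). Without KO replicate 1 it was 0.37 and still passed (edgeR adjusted p = 0.0446).

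The call for Igfbp2 in hypoxia depended on the libraries used. It was lost without flox replicate 1, 2 or 3 in hypoxia (adjusted p = 0.0931, 0.0942 and 0.0579 by edgeR's quasi-likelihood test), with a term for Xist (0.0587) and over the libraries without Xist (0.0504), with log2 fold changes from 0.51 to 0.62. With hypoxia, each flox library was below each flox library in normoxia, at -0.31 ± 0.15, and this did not pass (edgeR adjusted p = 0.772). The difference between the 2 knockout effects was 0.35 ± 0.20, with a 95% interval from -0.08 to 0.78 (edgeR adjusted p = 0.736), so the knockout effect on Igfbp2 was not shown to depend on oxygen.

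The 9 fibroblast markers of meninges and perivascular spaces summed to 83.1 to 101 CPM in flox mice and 106 to 142 CPM in KO mice in normoxia, and to 70.4 to 77.5 CPM in flox mice and 108 to 198 CPM in KO mice in hypoxia. Of them 1 was higher in KO past the threshold in normoxia and 7 in hypoxia. Per 100 CPM of these markers Igfbp2 was at 38.0 to 42.9 CPM in flox mice and 32.8 to 38.8 CPM in KO mice in normoxia, which overlapped, and at 39.96 to 42.1 CPM in flox mice and 28.7 to 31.9 CPM in KO mice in hypoxia. In hypoxia the KO range was the lower one and did not overlap that of flox. Of the 8 choroid plexus markers none passed the threshold between genotypes, and Igfbp2 per 100 CPM of them was at 6.10 to 8.61 CPM in flox mice and 8.44, 9.51, 14.4 and 16.8 CPM in KO mice in hypoxia, which overlapped. In normoxia it was at 8.19 to 12.9 CPM in flox mice and at 14.8 and 13.7 CPM in KO replicates 1 and 3, and at 368 CPM in replicate 2, which nearly lacked these markers. The part of either cell type in the Igfbp2 level was not tested. The genes most like Igfbp2 over the 13 libraries were Cyp1b1, a cytochrome P450 (r = 0.922, and 0.905 with group means removed), Dcn, a matrix proteoglycan (0.918 and 0.826), and Col5a2, a fibrillar collagen (0.915 and 0.912). Dcn is 1 of the 9 fibroblast markers.

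Igfbp4 encodes a binding protein that withholds IGFs until the protease PAPP-A cleaves it. It was at 68.4, 73.7 and 65.1 CPM in flox mice and at 82.5, 79.9 and 71.3 CPM in KO mice in normoxia, where the groups overlapped. In hypoxia it was at 66.0, 67.4 and 69.3 CPM in flox mice and at 88.7, 75.0, 78.6 and 74.2 CPM in KO mice, and each KO library was above each flox library. The log2 fold change was 0.17 ± 0.07 in normoxia (edgeR adjusted p = 0.262) and 0.23 ± 0.06 in hypoxia (edgeR adjusted p = 0.0372). The knockout effects differed by 0.05 ± 0.09 (edgeR adjusted p = 0.931), and their average of 0.20 ± 0.05 passed (edgeR adjusted p = 0.0103). The hypoxia call was lost without KO replicate 1 or 3 or without flox replicate 1, 2 or 3, at log2 fold changes of 0.17, 0.23, 0.21, 0.23 and 0.25 (edgeR adjusted p = 0.0944, 0.0681, 0.131, 0.118 and 0.073).

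Igfbp4 did not keep pace with the endothelial markers: per 100 CPM of them it was at 25.9 to 29.8 CPM in flox mice and 15.2 to 16.5 CPM in KO mice in normoxia, and at 18.9 to 21.0 CPM in flox mice and 9.16 to 12.4 CPM in KO mice in hypoxia. Its nearest genes by pattern were Abcc4, an exporter of drugs and organic anions (r = 0.941, and 0.885 with group means removed), Cpt1a, an enzyme that lets fatty acids into mitochondria (0.922 and 0.838), and Rflnb, a partner of filamin (0.918 and 0.853).

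Igfbp3 encodes the main carrier of IGF1 in blood. It was at 14.8, 12.8 and 15.6 CPM in flox mice and at 15.5, 12.9 and 14.3 CPM in KO mice in normoxia. In hypoxia it was at 15.2, 15.5 and 14.1 CPM in flox mice and at 28.5, 15.5, 17.4 and 19.6 CPM in KO mice, so 1 KO library stood far above and another lay among the flox libraries. The log2 fold change for KO against flox in hypoxia was 0.44 ± 0.16 and did not pass (edgeR adjusted p = 0.0983). The library far above is KO replicate 1, and without it the KO mean was 17.5 ± 2.09 CPM (n = 3) and the log2 fold change was 0.22 (edgeR adjusted p = 0.219). Without KO replicate 2, the lowest, it was 0.55 and passed (edgeR adjusted p = 0.0231).

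Igfbp5, which binds to extracellular matrix as well as IGFs, was at 203 ± 26.4 CPM in flox mice and 182 ± 25.6 CPM in KO mice in normoxia (n = 3 per group), then at 191 ± 16.4 CPM in flox mice (n = 3) and 206 ± 29.0 CPM in KO mice (n = 4) in hypoxia. The groups overlapped in all 4 comparisons, and the log2 fold changes ran from -0.16 ± 0.12 to 0.18 ± 0.11. Igfbp6, whose protein prefers IGF2, was at 26.6, 25.8 and 19.9 CPM in flox mice and at 29.3, 28.1 and 23.9 CPM in KO mice in normoxia. In hypoxia its 4 KO libraries, at 27.1 to 29.6 CPM, were all above the 3 flox libraries, at 23.8 to 25.5 CPM. That log2 fold change of 0.21 ± 0.09 did not pass (edgeR adjusted p = 0.186).

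**Figure D3:**
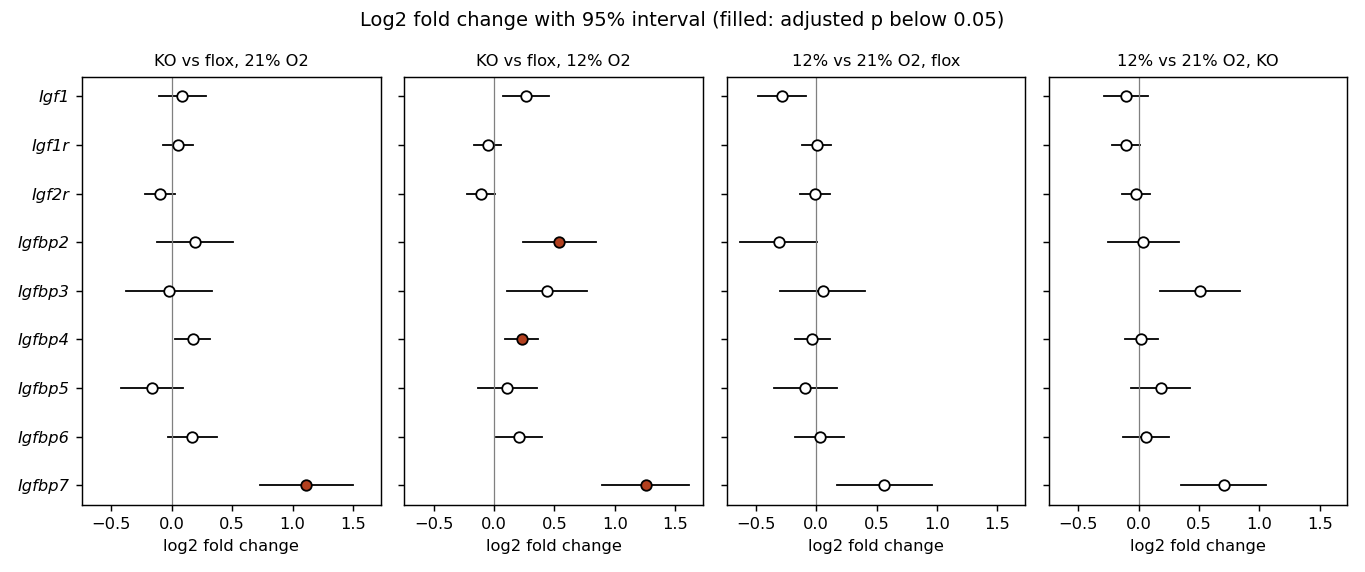
Log2 fold change of each gene (points) with its 95% interval (lines) in the 4 pairwise comparisons, filled where the edgeR adjusted p was below 0.05. Filled points are Igfbp7 for KO against flox in normoxia (1.12), and Igfbp7 (1.25), Igfbp2 (0.54) and Igfbp4 (0.23) in hypoxia.

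Groups did not overlap for 2 of 9 members in KO against flox in normoxia (1 higher, 1 lower) and for 5 of 9 in hypoxia (all higher), beside the 19.2% and 20.9% of all genes. For hypoxia against normoxia this was so for 3 of 9 in flox (1 higher, 2 lower) and 1 of 9 in KO, beside 12.5% and 12.6%. By edgeR's quasi-likelihood test 0 of 9 members passed for hypoxia against normoxia in flox, where 0.0222% of all genes tested passed, and 0 of 9 in KO, where 0.897% did. At an unadjusted p below 0.05 there were 2 in each. DESeq2 called 0 in flox and 1, Igfbp7, in KO (adjusted p = 0.0256), and limma on log2 RPKM called 0 in both. For the difference between the knockout effects edgeR called 0 of 9 members and 0% of genes, with 0 members at an unadjusted p below 0.05 and 0 by DESeq2 and limma.

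The summed level of the 6 binding protein transcripts had a higher mean in KO at both oxygen levels, and Igfbp7 differed most among them. Igfbp7 alone went from a mean of 10.04 RPKM in flox to 21.8 RPKM in KO in normoxia. In hypoxia it went from 14.9 to 36.1 RPKM. The sum of all 6 was 106 ± 4.36 RPKM in flox and 122 ± 2.42 RPKM in KO in normoxia, and 105 ± 6.07 RPKM in flox and 146 ± 23.0 RPKM in KO in hypoxia. Igfbp7 made up 9.48 ± 1.12% of it in flox and 17.9 ± 1.39% in KO in normoxia, and 14.2 ± 0.98% and 24.4 ± 2.85% in hypoxia. Igfbp5 went from 31.7 ± 2.75% to 24.8 ± 3.86% in normoxia and from 30.1 ± 0.94% to 23.9 ± 1.05% in hypoxia, while its level did not change past the threshold. Ranked by RPKM among the 6, Igfbp7 was 5th in each flox library but 1 (4th in flox replicate 3 in hypoxia), 3rd or 4th in KO in normoxia, and 1st or 2nd in KO in hypoxia. The sum came to 101 to 109 times the Igf1 RPKM in flox and 109 to 121 times in KO in normoxia, and to 127 to 130.1 times in flox and 128 to 162 times in KO in hypoxia. These sums, shares and ratios were not tested.

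**Figure D4:**
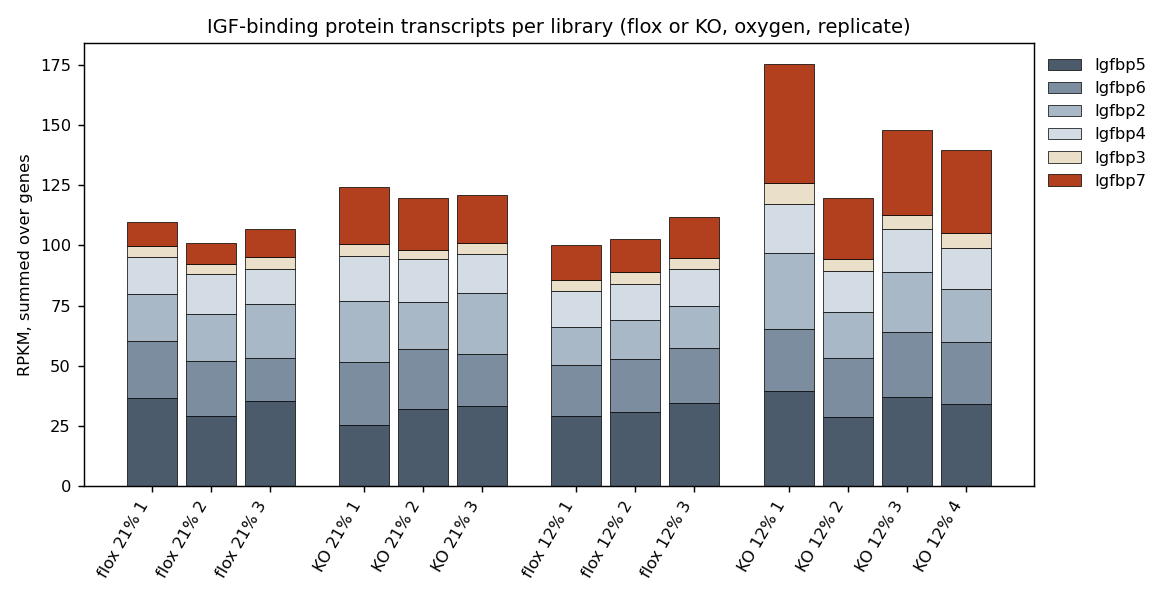
RPKM of the 6 binding protein genes stacked for each library, labelled by genotype, oxygen and replicate. The Igfbp7 segment goes from 8.89 to 11.5 RPKM in flox in normoxia to 25.3 to 49.1 RPKM in KO in hypoxia, and KO replicate 1 in hypoxia has the tallest bar at 175 RPKM.

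Other genes of the system were taken from lists. Of 12 further ligands, receptors and regulators of binding proteins, 9 had enough counts to be tested, and Igfals, Igfbp1 and Ins2 did not. In KO 1 of the 9 was lower in normoxia and 2 in hypoxia, where 0.369% and 2.28% of all genes tested were lower, and none was higher. Igfbpl1, which encodes a protein related to the IGF-binding proteins and known from the developing brain, fell in KO at both oxygen levels. It was at 2.17, 2.39 and 2.48 CPM in flox mice and at 0.212, 0.513 and 0.188 CPM in KO mice in normoxia, and at 1.64, 1.59 and 1.41 CPM in flox mice and 0.527, 0.360, 0.305 and 0.403 CPM in KO mice in hypoxia. No KO library reached a flox library, and counts per KO library were 9 to 36. The log2 fold changes were -2.87 ± 0.29 and -1.96 ± 0.27 (edgeR adjusted p = 0.000107 and 0.000236), and their difference of 0.91 ± 0.40 did not pass (edgeR adjusted p = 0.676).

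Htra1 encodes a secreted serine protease that cleaves binding proteins. In hypoxia it was at 107, 105 and 103 CPM in flox mice and at 89.0, 85.7, 84.5 and 87.6 CPM in KO mice, each KO library below each flox library, and it fell in KO (log2 fold change -0.28 ± 0.06, edgeR adjusted p = 0.00937). It also fell with hypoxia in KO, from 121, 116 and 105 CPM in normoxia (-0.40 ± 0.06, edgeR adjusted p = 0.0113). That call was lost without KO replicate 1 or 2 in normoxia (edgeR adjusted p = 0.0591 and 0.0778). Igf2, the other IGF ligand, lay between 1.89 and 4.58 CPM, at 0.43 ± 0.19 in normoxia and 0.60 ± 0.19 in hypoxia for KO against flox (edgeR adjusted p = 0.333 and 0.0594). The average of these knockout effects on Igf2, 0.52, passed, and it passed in 19 of 23 alternative analyses. Over the libraries without Xist it did not (0.48, edgeR adjusted p = 0.118). In the same average Htra1, Igfbpl1 and Insrr were lower past the threshold. The insulin receptor Insr was at 65.9 ± 1.48 CPM in flox mice in normoxia (n = 3) and 77.7 ± 7.97 CPM in KO mice in hypoxia (n = 4). Those groups differ in both genotype and oxygen, and no test compared them directly. The smallest edgeR adjusted p of Insr in a pairwise comparison was 0.0836. Neither Insr nor Stc1, an inhibitor of PAPP-A proteases, passed in any pairwise comparison.

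Of 5 genes of growth hormone input to Igf1, 0 passed in normoxia and 1 in hypoxia, for KO against flox, beside 1.96% and 6.78% of all genes that were higher. Ghr, the growth hormone receptor, was at 8.78, 7.54 and 8.03 CPM in flox mice and 11.1, 9.68, 10.2 and 9.03 CPM in KO mice in hypoxia. The log2 fold change of 0.30 ± 0.09 passed narrowly (edgeR adjusted p = 0.0426) and held in 10 of 24 alternative analyses. The kinase Jak2 and the transcription factor Stat5b did not pass, at 0.03 ± 0.06 and 0.05 ± 0.06 in normoxia and -0.04 ± 0.06 and -0.04 ± 0.06 in hypoxia. Gh, which encodes growth hormone itself, is not among these 5 genes. It was at 0 CPM in both genotypes in normoxia. In hypoxia it was at 0.733 to 1.10 CPM in flox mice and at most 0.036 CPM in KO mice. Gh passed as higher with hypoxia in flox and as lower in KO against flox in hypoxia. These calls rest on 121 counts over the flox and 4 over the KO libraries in hypoxia. A list of 6 pituitary markers, Gh among them, summed to 1.66 to 2.59 CPM in flox and 1.84 to 2.16 CPM in KO in normoxia. In hypoxia the sums were 3.13 to 3.80 CPM in flox and 2.13 to 3.02 CPM in KO. Of the 6, 2 were at 0 in each flox library in hypoxia and 3 or 4 in every other library. The source of Gh and its bearing on Igf1 were not tested.

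Of 19 receptor adaptors and genes of the PI3K, AKT and FOXO pathway, through which the IGF1 receptor signals, 1 was higher in KO in normoxia and 2 in hypoxia, and none was lower. Over all genes tested 1.96% and 6.78% were higher, and nothing is read from counts this small. For the average of the knockout effects Mtor, a gene of this list, was lower past the threshold. Akt2, a kinase of insulin and IGF signalling, was at 75.7, 83.1 and 78.8 CPM in flox mice and 103, 104 and 91.5 CPM in KO mice in normoxia, and at 70.5, 70.5 and 74.6 CPM in flox mice and 94.0, 95.7, 107 and 94.4 CPM in KO mice in hypoxia. No KO library overlapped a flox library at the same oxygen level. The log2 fold changes were 0.33 ± 0.06 and 0.44 ± 0.06 (edgeR adjusted p = 0.00622 and 0.000121). Shc1, an adaptor of receptor tyrosine kinases, rose in hypoxia from 11.4 ± 0.49 CPM in flox mice (n = 3) to 16.1 ± 2.49 CPM in KO mice (n = 4), at 0.50 ± 0.11 (edgeR adjusted p = 0.00719). The kinase Gsk3b and the PI3K subunit Pik3r1 did not pass, with log2 fold changes between -0.06 ± 0.04 and 0.03 ± 0.04 for Gsk3b in the 4 pairwise comparisons and between -0.05 ± 0.05 and 0.05 ± 0.05 for Pik3r1.

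Of 6 genes of mannose 6-phosphate sorting, the other role of Igf2r, 0 passed in normoxia and 1 in hypoxia, for KO against flox, beside the same shares of all genes. Ctsd, the lysosomal protease cathepsin D, was at 149, 139.9 and 145 CPM in flox mice and 198, 146, 176 and 168 CPM in KO mice in hypoxia, and the groups overlapped. Its log2 fold change of 0.25 ± 0.08 lay at the threshold (edgeR adjusted p = 0.049998) and held in 7 of 24 alternative analyses. Without KO replicate 1 it was 0.17 (edgeR adjusted p = 0.124). The protease Ctsb and the smaller mannose 6-phosphate receptor M6pr did not pass in a pairwise comparison, at 0.07 ± 0.04 and 0.08 ± 0.04 in hypoxia. For the average of the knockout effects M6pr was higher past the threshold, and Ctsd and Ctsb were not.

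**Figure D5:**
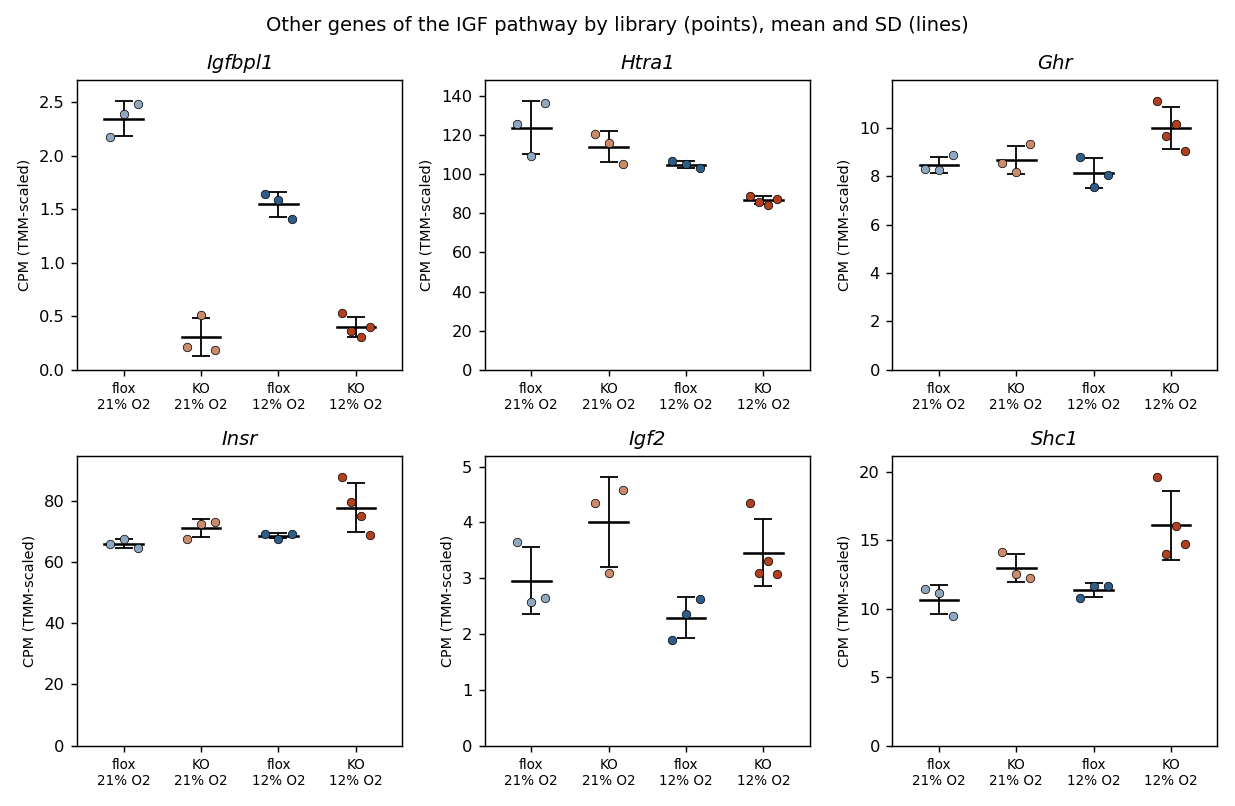
CPM (TMM-scaled, from 0 on each axis) of 6 genes around the IGF system, with 1 point per library in the 4 groups and lines for the mean and SD. Igfbpl1 is at 0.513 CPM or less in KO in normoxia and at 1.41 CPM or more in every flox library.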

How the data were processed

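For 55416 genes the authors deposited raw counts and RPKM values, which equal counts per library total and gene length. HISAT2, edgeR and GRCm39 are named in the submitters' processing notes. The sources used here give neither annotation nor strand setting. Stranded messenger RNA libraries were made, per the labels' protocols. Groups and replicate numbers came from the sample titles.

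Counts were tested with edgeR 4.0.16 (R 4.3.3) after filterByExpr (22507 genes) and TMM scaling, by quasi-likelihood F tests of 7 contrasts, each group having its own mean over 13 libraries. Benjamini-Hochberg adjustment ran over all genes tested (threshold 0.05). The tests were also run on counts simulated with the same dispersion for all genes and with changes in KO in normoxia only. Such counts do not check the calls in hypoxia, where some genes spread more between KO libraries. DESeq2 1.42.0, limma 3.58.1 (limma-trend on log2 RPKM with a pseudocount of 1 or 0.1), other scalings, filters, a replicate block, sex terms and leaving out each library were alternatives.

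The members, gene lists and markers were chosen with earlier results of these data known. Named were all members, and per list up to 6 genes past the threshold in a pairwise contrast and the 2 most abundant that were not. Igf2, Gh, Insrr and Mtor were named after their values were seen. For each member past the threshold, the 3 genes with the highest Pearson r of log2 CPM were named, among genes with a mean log2 CPM of at least 2. Names, overlapping genes and RefSeq promoters came from a GRCm38 reference, another build than the authors'.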

Additional observations from a re-analysis of the deposited data

How the results depend on the processing

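Igfbp7 passed for KO against flox in each of 24 alternatives at each oxygen level, with log2 fold changes from 1.03 to 1.29 in normoxia and 1.06 to 1.397 in hypoxia. Igfbp2 and Igfbp4 each passed in 19 of 24 in hypoxia. Igf1 and Igfbp3, which did not pass there with the main settings, each passed in 2 of 24, and Igfbp6 in 1 of 24. For the average of the knockout effects Igfbp6 passed in 4 of 23. No value past the threshold changed sign. Among the 1485 alternative values of the members, 82 that were not past it did, all of main values within 0.14 of 0. For hypoxia against normoxia, 1 member passed in KO with no composition factor and with DESeq2, and 2 without a filter. Without a filter 1 passed in flox and 2 in the average over genotypes. That average had 0 with limma-trend on log2(RPKM + 1) and with only the libraries without Xist. Leaving out 1 library, the members past the threshold numbered 1 to 1 and 1 to 4 for KO against flox in normoxia and hypoxia, 2 to 3 for their average, 0 to 0, 0 to 2 and 0 to 1 for hypoxia against normoxia in flox, in KO and averaged, and 0 to 0 for the interaction. The number of 1 in hypoxia came without flox replicate 1, 2 or 3 in hypoxia.

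Over all genes, the same fits called 250 to 727 (524 with all libraries) and 1151 to 2490 (2039) for KO against flox, 1951 to 3053 (2584) averaged, 0 to 45 (5), 2 to 463 (202) and 72 to 331 (237) for hypoxia against normoxia, and 0 to 1 (0) for the interaction. With no filter, DESeq2, limma-trend with a pseudocount of 1 and of 0.1, and only the libraries without Xist, the counts were 995, 874, 249, 333 and 311 for KO in normoxia, 158, 67, 2, 2 and 66 for hypoxia in flox, 833, 755, 46, 42 and 94 for hypoxia in KO, and 55, 5, 2, 2 and 10 for the interaction. The first 4 gave 691, 604, 113 and 125 for the hypoxia average, and the last gave 1661 for the KO average. Fits of only the libraries compared called 19 for hypoxia in flox and 30 in KO. The cause of these shifts was not tested.

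Libraries were treated as unpaired, as the titles do not explain the replicate numbers. Same-numbered libraries had correlations of deviations from -0.018 to 0.088. The best match was the same-numbered library for some replicates, as for 2 and 3 of flox against KO in normoxia, and another for the rest. With so few libraries per group, such correlations do not exclude a pairing. With the replicate block 4 members passed for KO against flox in hypoxia, against 3 without, the added one being Igf1 (log2 fold change 0.30, edgeR adjusted p = 0.0456), and 1 in normoxia. The members had at least 367 counts per library, while Igfbpl1 had 9 counts in 1 KO library. Whether depth limited any call was not tested.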
